A study of Mus musculus with 6 samples.

Results

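Integrins and laminins are the receptors and ligands through which muscle stem cells hold on to the basement membrane around each muscle fibre. The set described here holds every mouse gene for an integrin alpha chain, an integrin beta chain or a laminin chain that could be recognised by its symbol. There were 37 such genes, 26 integrins and 11 laminins, among 55487 genes measured. The rule that picks the genes reads the symbol and uses no measured value.

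An integrin is a pair of 1 alpha and 1 beta chain that spans the plasma membrane, and the alpha chain largely sets which matrix protein is bound. A laminin is a cross-shaped trimer of 1 alpha, 1 beta and 1 gamma chain, and laminins polymerise into the sheet on which the rest of the basement membrane is built. In muscle, the pair made by Itga7 and Itgb1 is the main laminin-binding integrin, and the trimer made by Lama2, Lamb1 and Lamc1 is the main laminin around fibres. Loss of Lama2 causes a congenital muscular dystrophy, and Itgb1 is needed for the maintenance of muscle stem cells.

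RNA was sequenced from muscle stem cells of mice 10 weeks of age, taken 60 h after muscle damage by cardiotoxin (CTX), a venom peptide that destroys muscle fibres and sets off repair. The 3 control libraries came from animals of wild type (WT) genotype given oil, and the 3 knockout (KO) libraries from animals labelled KO for Setdb1 and given tamoxifen, the drug that switches on inducible recombinases. The Setdb1 protein is a histone H3 methyltransferase whose mark goes with silent chromatin. Genotype and tamoxifen changed together, so their effects cannot be told apart. Which recombinase was used, in which cells, and which exon was removed are points not stated in the sources used here. Libraries within a group are labelled as biological replicates but not tied to animals, so p-values measure the spread between these libraries.

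Libraries held 4052569 to 5690844 counts, of which 28.6% to 38.39% came from a single ribosomal RNA gene. Setdb1 was measured at 32.1 to 40.5 CPM (counts scaled to a common library size, in the usual unit) in the control libraries and at 12.7 to 16.5 CPM in the KO libraries. The stem cell marker Pax7 was present in every library, at 21.5 to 34.3 CPM. Control library 3 stood apart in its neutrophil transcripts, and 12 neutrophil markers summed to 2110 CPM there, against 743 and 281 CPM in KO libraries 2 and 3 and 3.34 to 5.59 CPM in the other 3. Leukocyte marker Ptprc was likewise highest there, with 53 counts against 3 to 18 elsewhere. Without control library 3, Itgb4, Itga8 and Itga3 were all still called. With KO library 2 left out as well, Itgb4 and Itga3 were called and Itga8 was not (edgeR adjusted p = 0.1234). The part of neutrophils in these 3 genes was not tested.

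Of the 37 genes, 25 had enough counts to be tested, 17 integrins and 8 laminins. In KO cells, Itgb4 and Itga8 rose and Itga3 fell, and the other 22 did not pass the test. The share of members called was 12% (3 of 25). Over all 11224 genes tested, 2.83% were called in either direction, 2.22% as higher and 0.615% as lower. The test was edgeR's quasi-likelihood test with Benjamini-Hochberg adjustment over all genes tested, two-sided, at a threshold of 0.05. The log2 fold change was above 0 for 18 of the 25, against 50.9% of all genes tested, with a median of 0.19. Of the 25 tested genes, 18 cleared the low-count filter in all 6 libraries, and Itga8 cleared it in all 3 KO but only 2 control libraries.

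Start regions of Itga8 and Itga3 are shown because these genes changed in opposite directions. Each is the RefSeq window (GRCm38.p6) of 300 bases that runs from 250 bases before the gene's start to 50 after it, on the minus strand, at chr2:12301895-12302194 for Itga8 and chr11:95076665-95076964 for Itga3. Such windows were found for 23 of the 37 members, but not for Itgb4. Capitals mark each CG dinucleotide, the site of DNA methylation in mammals.
Itga8: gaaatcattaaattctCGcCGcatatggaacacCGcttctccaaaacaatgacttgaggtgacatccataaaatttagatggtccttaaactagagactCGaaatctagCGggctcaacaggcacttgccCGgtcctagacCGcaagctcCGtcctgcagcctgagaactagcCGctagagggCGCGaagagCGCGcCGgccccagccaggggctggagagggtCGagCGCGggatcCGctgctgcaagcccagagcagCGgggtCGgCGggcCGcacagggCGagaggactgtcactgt
Itga3: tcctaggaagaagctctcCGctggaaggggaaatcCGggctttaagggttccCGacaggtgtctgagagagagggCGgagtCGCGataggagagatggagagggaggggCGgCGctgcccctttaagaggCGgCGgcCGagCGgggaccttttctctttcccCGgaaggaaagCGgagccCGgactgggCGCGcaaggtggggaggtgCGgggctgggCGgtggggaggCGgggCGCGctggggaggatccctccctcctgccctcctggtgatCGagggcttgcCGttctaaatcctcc
The Itga8 window holds 23 CG dinucleotides and the Itga3 window 24, against a median of 7 over all 32851 windows. Such numbers are not particular to the genes that changed. Among members not called, the Itgb1 window holds 27, those of Itgav and Lama5 hold 24 each, and that of Lama2 holds 1. A second Itga3 window, for a start further into the gene, holds 5. The SP1 motif GGGCGG, searched on both strands, occurs 3 times in the Itga3 window shown and not in that of Itga8, and 35.7% of all windows hold it. The other motifs searched in the same way occur in neither window shown. The AP-1 motif TGACTCA is held by 5.2% of all windows. For the E-box bound by MyoD, spelled CAGCTG, the share of all windows is 16.3%. The TEAD motif GGAATG stands in 14.7% of them. Windows with the NF-Y motif CCAAT make up 37.4% of the total, and those with the TATA box, searched as TATAAA, make up 13.6%. No methylation or binding was measured in this study.

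Levels of different genes were compared as CPM per kilobase of exon, since long transcripts give more reads. Itgb1, the beta chain shared by most integrins of the cell, was the most abundant member, at 93.3 ± 3.65 CPM per kilobase in control cells (mean ± SD, n = 3). Lamc1 and Itga7 followed at 22.8 ± 3.38 and 21.8 ± 3.02 CPM per kilobase, and their libraries overlapped. Itga5, Itgav, Itga3 and Lamb1 came next, between 8.19 and 10.7 CPM per kilobase, each overlapping its neighbour in the order. Lama2, Lama5 and Lamb2 stood at 4.74, 4.57 and 3.67 CPM per kilobase and overlapped as well. The other members were lower, from Itgb6 at 1.62 CPM per kilobase downwards, among them both genes that rose. With the longest annotated transcript as the length, Itga7 came to 43.9 and Lamc1 to 24.8 CPM per kilobase, so Itga7 then ranked above Lamc1. Itgav and Lamb1 then ranked above Itga5. By that length Lama2 came to 8.06 and Lama5 to 4.57 CPM per kilobase. Shares and ratios of levels given below use the exon length and would change with it.

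**Figure D1:**
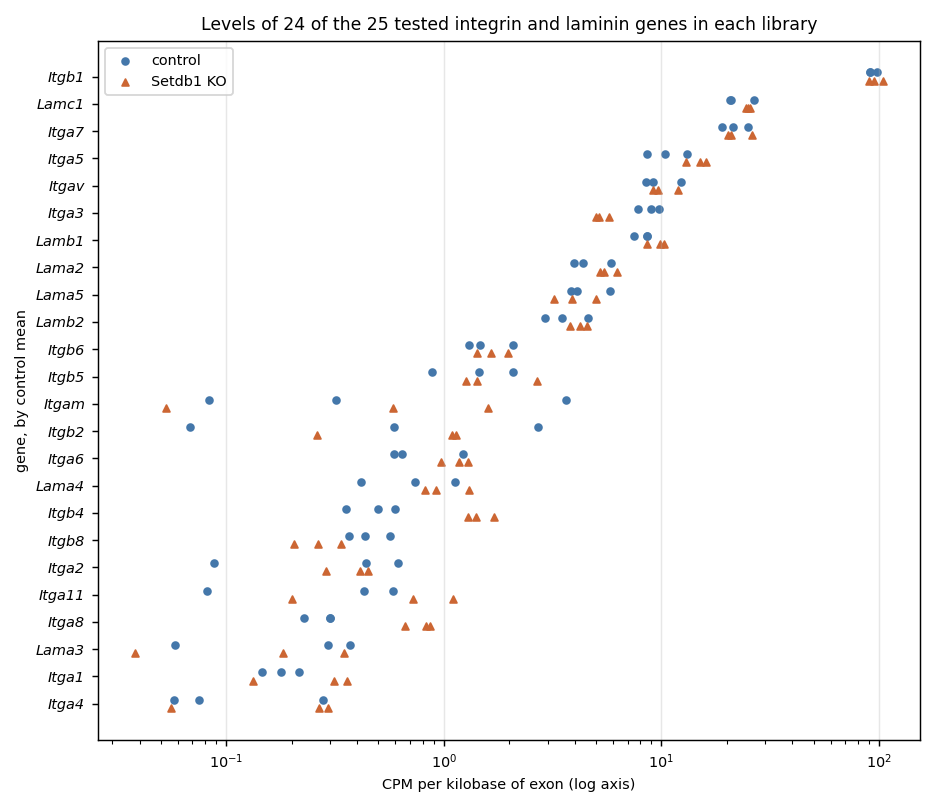
CPM per kilobase of exon (log axis) of 24 of the 25 tested genes in each control library (circles) and each Setdb1 KO library (triangles), ordered by the control mean. Itgb1 lies above all other members, at 93.3 CPM per kilobase in control cells. Circles and triangles do not overlap for Itga3, Itgb4 and Itga8, which passed the test, nor for Itgb8 and Lamb1, which did not.

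Among integrin alpha chains that bind laminin, Itga3 fell while Itga7 and Itga6 did not pass the test. Itga3 (ENSMUSG00000001507, chromosome 11, 95044474 to 95076801, minus strand, GRCm38) encodes a chain that binds laminins that contain Lama3 or Lama5. It was measured at 51.3, 55.5 and 44.5 CPM in control libraries 1 to 3 and at 28.7, 29.6 and 32.8 CPM in KO libraries 1 to 3. Every KO library lay below every control library. The mean went from 50.4 ± 5.55 to 30.4 ± 2.17 CPM, a log2 fold change of -0.73 (SE 0.13, 95% interval -1.01 to -0.44, adjusted p = 0.006404). Without control library 2 the log2 fold change was -0.66 and the call ended (adjusted p = 0.05547).

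Itga7 was measured at 203, 173 and 154 CPM in control libraries and at 211, 163 and 170 CPM in KO libraries. The groups overlapped, and the 95% interval of the log2 fold change, -0.26 to 0.33, leaves room for no 2-fold change. Itga6, which pairs with Itgb1 or Itgb4, averaged 7.41 ± 3.17 CPM in control and 10.4 ± 1.47 CPM in KO cells (a log2 difference of 0.49, SE 0.28, adjusted p = 0.3784). Its control library 2, at 11.1 CPM, lay within the KO range. Of the summed level per kilobase of the 3 laminin-binding alpha chains, Itga3 made up 25.9%, 30.1% and 28.4% in control libraries and 15.6%, 19.4% and 20.7% in KO libraries. Itga7 made up 66.1% to 72.2% of that sum in control and 75.7% to 80.8% in KO libraries.

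Among beta chains, Itgb4 rose and the other 5 tested did not pass. Itgb4 (ENSMUSG00000020758, chromosome 11, 115974709 to 116008412, plus strand) encodes the partner of Itga6 in hemidesmosomes, the anchors that tie epithelial cells to laminin. It was measured at 4.21, 2.51 and 3.51 CPM in control libraries and at 9.84, 9.04 and 11.9 CPM in KO libraries. The lowest KO library was above the highest control library. The log2 fold change was 1.58 (SE 0.28, 95% interval 0.995 to 2.17, adjusted p = 0.004357), a ratio of 3.0 from 52 control and 142 KO counts. Itgb4 was called under every one of the 15 alternatives run (adjusted p up to 0.03788). Even so, it made up 1.28% to 1.51% of the summed beta chain level per kilobase in KO libraries, against 0.377% to 0.58% in control libraries.

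Itgb1 made up 92.9% to 96.5% of the beta chain sum. It was measured at 398, 373 and 372 CPM in control and at 366, 389 and 426 CPM in KO libraries. These ranges overlapped, with a log2 fold change of 0.05 (95% interval -0.21 to 0.30, adjusted p = 0.8788). Itgb8, which with Itgav activates latent TGF-beta, was at 4.81, 6.26 and 4.06 CPM in control and at 3.72, 2.26 and 2.93 CPM in KO libraries. Its groups did not overlap, but the difference missed the threshold (log2 fold change -0.77, SE 0.34, adjusted p = 0.2552). Itgb6, the other activator of latent TGF-beta, was at 11.5 ± 2.94 and 11.95 ± 2.02 CPM (adjusted p = 0.9205). Itgb5, a partner of Itgav, was at 5.24 ± 2.14 and 6.38 ± 2.78 CPM (adjusted p = 0.722).

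**Figure D2:**
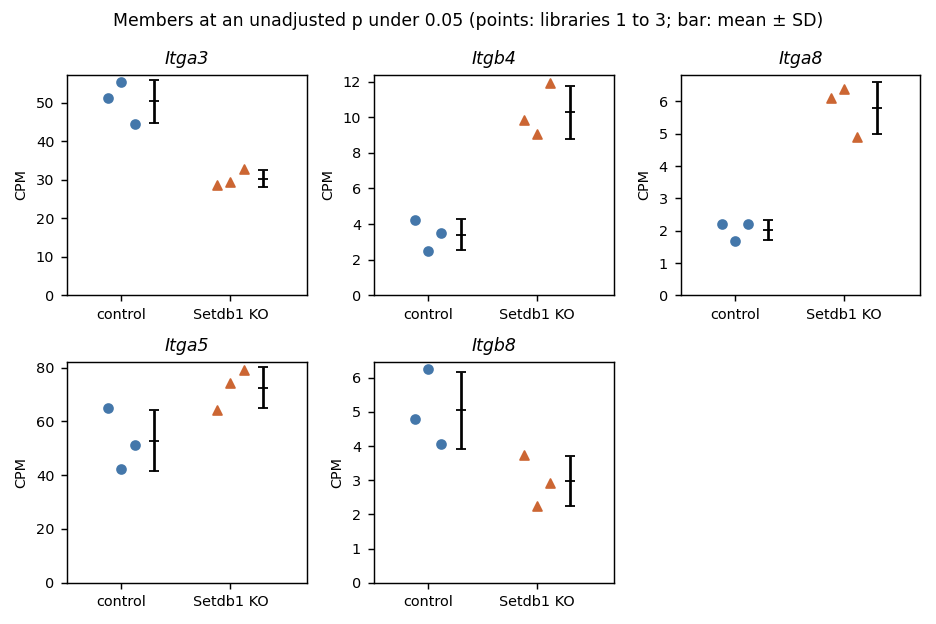
CPM of 5 of the 6 members at an unadjusted p under 0.05, for each control library (circles) and Setdb1 KO library (triangles), with the mean and SD of 3 libraries beside them. KO libraries lie apart from control libraries in the panels of Itga3, Itgb4, Itga8 and Itgb8, and in that of Itga5 the lowest KO value of 64.1 CPM is below the highest control value of 64.9 CPM.

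Among the alpha chains that recognise the RGD sequence of fibronectin and vitronectin, Itga8 rose. Itga8 (ENSMUSG00000026768, chromosome 2, 12106632 to 12301922, minus strand) encodes the receptor for nephronectin, known from kidney development and from smooth muscle. It was measured at 2.20, 1.67 and 2.22 CPM in control libraries and at 6.12, 6.37 and 4.89 CPM in KO libraries. The groups did not overlap, with 8 to 12 counts in each control and 23 to 31 in each KO library. The log2 fold change was 1.49 (SE 0.34, 95% interval 0.77 to 2.21, adjusted p = 0.02727). This call is the least firm of the 3: it ended with DESeq2 (adjusted p = 0.0647) and when control library 1 or 2 or KO library 1, 2 or 3 was left out (0.06605, 0.1289, 0.1062, 0.1305 and 0.059).

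Itga5, the fibronectin receptor chain, was at 64.9, 42.4 and 51.2 CPM in control and at 64.1, 74.3 and 79.2 CPM in KO libraries. Control library 1 overlapped the KO range, and the gene did not pass (log2 fold change 0.46, SE 0.15, adjusted p = 0.1294), though it did without control library 1 (0.62, adjusted p = 0.04414). Itgav, which pairs with several beta chains, was at 107 ± 21.4 and 110 ± 16.4 CPM (log2 fold change 0.04, 95% interval -0.29 to 0.37). Itga2b, the platelet chain, was not tested, with 20 control and 18 KO counts. Of 8 platelet markers, Gp1bb, Gp9 and Treml1 had 0 counts in every library, and the 8 summed to 0.369 to 0.626 CPM in control and 0.411 to 2.15 CPM in KO libraries.

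Of the collagen-binding alpha chains, Itga1, Itga2 and Itga11 were tested and none passed, and Itga10 had 1 control and 7 KO counts. Itga2 and Itga11 had the highest control means of them per kilobase, 0.382 and 0.366 CPM, and overlapped. In KO cells Itga11 had the higher mean, at 0.677 against 0.382 CPM per kilobase, again with overlap. Its KO libraries ran from 0.200 to 1.105 and those of Itga2 from 0.288 to 0.448 CPM per kilobase. Itga2 was at 4.41, 0.626 and 3.14 CPM in control and at 3.19, 2.05 and 2.93 CPM in KO libraries, with wide overlap (log2 fold change -0.02, SE 0.52). Itga1, a receptor for collagen IV, was at 3.35 ± 0.646 and 4.99 ± 2.22 CPM (adjusted p = 0.4722). Itga11, a receptor for fibrillar collagen found on fibroblasts, was at 3.00, 0.418 and 2.22 CPM in control and at 3.72, 1.03 and 5.67 CPM in KO libraries. The spread within each group exceeded the difference between them (log2 fold change 0.87, SE 0.68). Control library 2, the lowest for Itga11, was also lowest for 10 fibro-adipogenic and fibroblast markers, which summed to 831 CPM there, to 1310 and 1860 CPM in the other control libraries and to 1540 to 2420 CPM in KO libraries. The part of these cells in the result was not tested. In libraries of many cells, a change in the number of cells of a type and a change in RNA per cell cannot be told apart.

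Itga4, which binds fibronectin and VCAM1, was at 0.801, 1.04 and 3.88 CPM in control and at 3.72, 4.11 and 0.782 CPM in KO libraries, so both groups held low and high values (log2 fold change 0.53, SE 0.70). Itga9, a receptor for tenascin and osteopontin, had 6, 0 and 8 counts in control and 8, 7 and 14 in KO libraries, too few to test.

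Leukocyte integrins were scarce or uneven between libraries. Itgam, an alpha chain of neutrophils and macrophages, had 8, 2 and 99 counts in control libraries 1 to 3 and 1, 39 and 15 in KO libraries 1 to 3. Its partner Itgb2 had 9, 1 and 45 control counts and 3, 17 and 17 KO counts. S100a9, an abundant neutrophil transcript, had 0, 0 and 3406 control counts and 2, 1051 and 385 KO counts. Control library 3 was the highest of the 6 for all 3 genes, and the part of neutrophils in the integrin values was not tested. Neither integrin passed (log2 fold changes of -0.83 and -0.42, SE 1.59 and 1.12), and without control library 3 both signs turned, to 1.891 and 1.338, again not called (adjusted p = 0.4945 and 0.3757). Reads of Itgam are uncertain besides, since 66.3% of the 50-base words of its transcripts also occur in another annotated gene. Itgal, the lymphocyte chain, had 2, 0 and 23 control counts and 5, 5 and 1 KO counts. Itgax, Itgae and Itgb7 had at most 3 counts in a group, Itgb3 had 6 and 12, and Itgad had 0 counts in all 6 libraries, where a count of 0 allows up to 3.

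**Figure D3:**
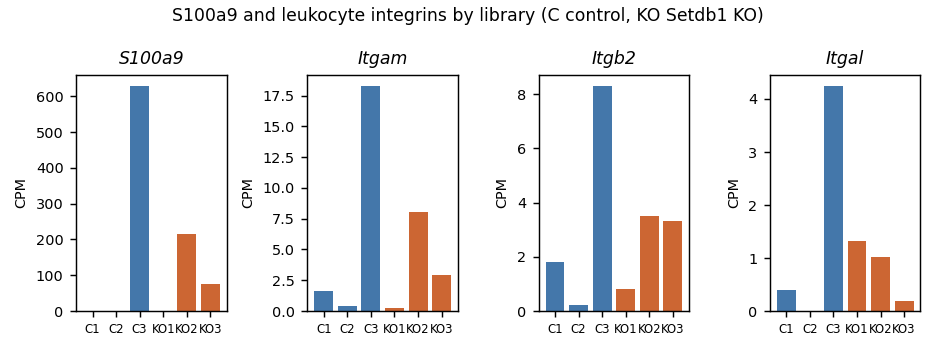
CPM of the neutrophil transcript S100a9 and of the leukocyte integrin genes Itgam, Itgb2 and Itgal in each library (C1 to C3 control, KO1 to KO3 Setdb1 KO). Control library 3 has the tallest bar in every panel, at 629 CPM for S100a9 and 18.3 CPM for Itgam.

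No laminin gene changed. None of the 8 tested passed with edgeR, DESeq2 or limma-voom, nor under any of the other alternatives run, and 1 was higher at an unadjusted p under 0.05. Over all genes tested, 10.1% were higher and 7.64% lower at that unadjusted level. The median log2 fold change of the 8 was 0.21, against 0.01 over all genes tested. For 5 of them, Lama2, Lama5, Lamb1, Lamb2 and Lamc1, the 95% interval of the fold change lay within 2-fold in either direction.

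Among laminin alpha chains, Lama2, the chain of the muscle fibre basement membrane, was at 96.3, 71.6 and 64.5 CPM in control and at 103, 85.4 and 88.9 CPM in KO libraries. The groups overlapped (log2 fold change 0.25, 95% interval -0.06 to 0.57, adjusted p = 0.3946). Lama5, an embryonic and vascular chain that muscle stem cells lay down when they become active, was at 65.9, 43.8 and 46.5 CPM in control and at 57.2, 36.5 and 44.2 CPM in KO libraries (log2 fold change -0.19, 95% interval -0.62 to 0.24). The ratio of Lama5 to Lama2 per kilobase was 0.981, 0.878 and 1.04 in control libraries and 0.799, 0.614 and 0.713 in KO libraries. These ratios did not overlap, and with 3 libraries against 3 no exact permutation test could have passed the threshold. Neither gene passed on its own. The ratio was among several formed from pairs of members, and the others did not overlap between groups either. Lama4, a chain of vessel walls, was at 9.16 ± 4.31 and 12.3 ± 3.14 CPM (adjusted p = 0.5471). Lama3, an epithelial chain, had 40 control and 26 KO counts, and Lama1 had 3 and 8.

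Among beta and gamma chains, Lamb1 was at 84.7, 85.0 and 74.1 CPM in control and at 97.6, 85.0 and 102 CPM in KO libraries. The lowest KO value was just above the highest control value, and the gene did not pass (log2 fold change 0.22, SE 0.12, adjusted p = 0.3439). Groups failed to overlap in 6 of the 25 tested members, and in 24.3% of all genes tested. KO libraries lay above control libraries in 4 of these 6, Itga8, Itgb4 and Lamb1 among them, and in 12.8% of all genes. They lay below in 2, Itga3 and Itgb8, and in 11.5% of all genes. Lamb2, the chain of the neuromuscular junction, was at 22.3 ± 5.23 and 25.5 ± 2.19 CPM. Lamc1, the gamma chain of most laminins, was at 221, 174 and 172 CPM in control and at 207, 203 and 211 CPM in KO libraries (log2 fold change 0.13, 95% interval -0.13 to 0.40). It made up 97.8% to 98.2% of the summed gamma chain level per kilobase in control libraries and 96% to 97.1% in KO libraries.

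The remaining chains described here were scarce. Lamb3, an epithelial chain, had 3, 2 and 4 control counts and 8, 7 and 6 KO counts, and Lamc3 had 4, 5 and 3 against 8, 11 and 6. Both fell under the low-count filter, and neither passed when it was lifted (adjusted p = 0.6104 for each).

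**Figure D4:**
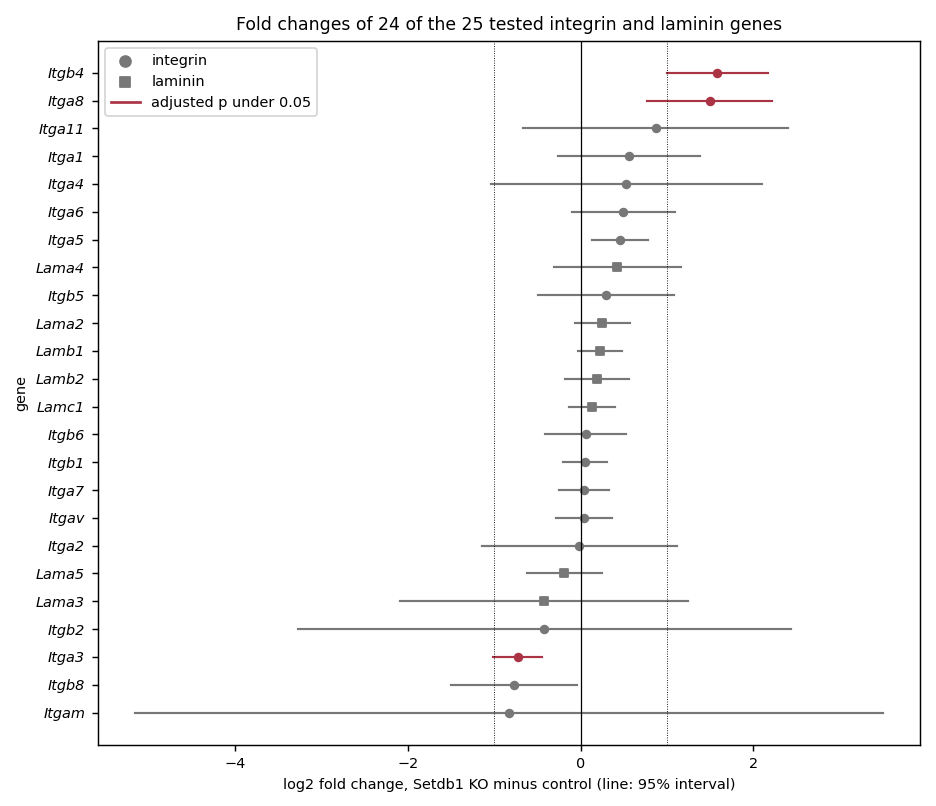
Log2 fold change (Setdb1 KO minus control) of 24 of the 25 tested genes with its 95% interval, circles for integrins and squares for laminins, and dotted lines at 2-fold. Itgb4, Itga8 and Itga3, in red, passed the test, and the widest interval is that of Itgam, from -5.16 to 3.50.

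Several markers of other cells were read beside the genes that rose. Of 9 mural and smooth muscle markers, all with counts, 6 were tested and 2 rose, Acta2 and Tagln (2.22% of all genes tested were called as higher). Their summed level was 96 to 129 CPM in control and 173 to 220 CPM in KO libraries, without overlap, as for Itga8 and Itgb4. Most of that sum came from Acta2 and Notch3. Myh11, a marker of mature smooth muscle, was at 0.401 to 4.25 CPM in control and 1.17 to 2.67 CPM in KO libraries. Cnn1 was at 0, 0.418 and 0.369 CPM in control and at 0 CPM in every KO library. Log2 fold changes of Cspg4, Notch3, Pdgfrb and Rgs5 were 0.765, 0.765, 0.295 and -0.002, and none of these was called. Of 5 epithelial markers, Krt14 had 0 counts throughout, and the 5 summed to 4.8 to 5.81 CPM in control and 4.11 to 7.04 CPM in KO libraries. The 6 Schwann cell markers, read because Schwann cells carry Itgb4, summed to 1.25 to 3.51 CPM and 1.56 to 6.92 CPM. A list of 10 endothelial markers summed to 6.47 to 14.2 CPM in control and 12.5 to 20.7 CPM in KO libraries. Epithelial, Schwann cell and endothelial sums overlapped between groups. The part of mural, epithelial, Schwann or endothelial cells in the result was not tested. Of 9 markers of myocytes and myofibres, 7 were tested and 2 rose, where 2.22% of all genes tested were called as higher. These were Acta1 and Actn3 (log2 fold changes of 1.84 and 0.76, adjusted p = 0.001231 and 0.007536). Myog, Mymk and Ttn (0.763, 0.644 and 0.261) and Myh3 and Tnnt3 (-0.038 and -0.319) were not called. The 9 summed to 263 to 591 CPM in control and 425 to 571 CPM in KO libraries, with overlap. Most of that sum was Ttn, at 213 to 520 CPM in control and 320 to 478 CPM in KO libraries. Of 11 muscle stem cell markers, all tested, 1 rose, against 2.22% of all genes tested called as higher. That was the myogenic factor gene Myod1, at 142 ± 5.49 CPM in control and 292 ± 63.4 CPM in KO cells. The median log2 fold change of the 11 was -0.009. Their summed level was 1130 to 1180 CPM in control and 1290 to 1690 CPM in KO libraries, without overlap. At an unadjusted p under 0.05, 4 of the 11 were higher and 0 lower, against 10.1% and 7.64% of all genes tested. The part of these cell states in the result was not tested.

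Neighbours on the chromosome were examined within 500 kb of each member. Itga8 had 4 tested neighbours, of which Mindy3 was called. Mindy3, which encodes a deubiquitinase, lies 45.3 kb from Itga8 on the same strand (chromosome 2, 12347263 to 12419470) with no tested gene between them. It was measured at 19.4, 20.04 and 23.6 CPM in control and at 46.5, 55.4 and 57.9 CPM in KO libraries, so that its groups lay apart as those of Itga8 did. Its log2 fold change was 1.341 (SE 0.14, adjusted p = 5.019e-05). Itgb4 had 27 tested neighbours and Itga3 had 17, and none of these was called. Of the 25 tested members, 7 had a called neighbour (28%), and of all tested genes with a position 21.6% did.

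Inside the cell, integrins signal through adaptors that link their beta tails to actin. Of 39 listed adaptor and signalling genes, 34 were tested, and 3 rose and 0 fell (2.22% of all genes tested were called as higher and 0.615% as lower). Lims1, which encodes the adaptor PINCH, was at 73.1, 71.4 and 68.5 CPM in control and at 96.5, 112 and 113 CPM in KO libraries, without overlap (0.60 on the log2 scale, SE 0.11, adjusted p = 0.008499). Rsu1, whose product binds PINCH and which lies 774.9 kb from Itga8, rose from 28.6 ± 3.95 to 43.1 ± 3.34 CPM (log2 fold change 0.59, adjusted p = 0.03575). Their partners in the same complex, Ilk and Parva, had log2 fold changes of 0.27 and 0.37 and did not pass (adjusted p = 0.2526 and 0.2245). Tgfb1i1, the focal adhesion protein Hic-5, rose from 4.59 ± 1.95 to 11.5 ± 2.03 CPM (log2 fold change 1.30, adjusted p = 0.02642). The talins and kindlins that switch integrins on, Tln1, Tln2 and Fermt2, had log2 fold changes of 0.26, 0.43 and 0.24, and none passed. Calls of Lims1 ended without control library 2 or KO library 2 or 3, and those of Rsu1 and Tgfb1i1 on leaving out control library 1 or 2 or a KO library (highest adjusted p 0.07748, 0.155 and 0.1517 in turn). That of Rsu1 also ended with DESeq2 (adjusted p = 0.08598). The median over the 34 was 0.15. At an unadjusted p under 0.05, 11 of the 34 were higher and 0 lower, against 10.1% and 7.64% of all genes tested. Tln1, Tln2, Fermt2, Ilk and Parva were among those higher at that level.

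Of 10 membrane proteins that associate with integrins, all tested, 1 rose, against 2.22% of all genes called as higher. The tetraspanin gene Cd82 was at 74.5, 77.5 and 88.7 CPM in control and at 130, 119 and 103 CPM in KO libraries, without overlap (log2 fold change 0.55, SE 0.13, adjusted p = 0.02931). The call ended when control library 1 or 2 or KO library 1 or 2 was left out (up to 0.1665). The laminin-receptor tetraspanin Cd151 had a log2 fold change of 0.33 and did not pass (adjusted p = 0.2021). At an unadjusted p under 0.05, 4 of the 10 were higher and 0 lower, against 10.1% and 7.64% of all genes tested. The median log2 fold change of the 10 was 0.21.

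Among proteins that share the basement membrane with laminin, 22 were listed, 16 were tested, and 2 rose and 0 fell, where 2.22% of all genes were called as higher. Col15a1, a collagen that links basement membrane to the matrix beneath it, was at 6.41, 5.22 and 7.94 CPM in control and at 16.0, 19.5 and 14.5 CPM in KO libraries. Its lowest KO library was above every control library (log2 fold change 1.342, SE 0.21, adjusted p = 0.001975), and it was called under all 15 alternatives. Sparc, a collagen-binding matrix protein, rose from 232 ± 56.6 to 374 ± 18.1 CPM (log2 fold change 0.69, adjusted p = 0.0382), a call that ended without control library 2 or KO library 1, 2 or 3 (up to 0.1854). The collagen IV genes Col4a1 and Col4a2 and the nidogens Nid1 and Nid2, which bridge the laminin and collagen networks, had log2 fold changes of 0.64, 0.59, 0.48 and 0.58. None of these 4 passed (adjusted p = 0.06076, 0.1961, 0.1449 and 0.2249). By unadjusted p, 8 of the 16 were higher and none lower at 0.05, against 10.1% and 7.64% of all genes tested, and the median log2 fold change was 0.53. The part of the fibroblasts whose markers are given above in these values was not tested.

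Among 23 genes of the dystroglycan complex, the other laminin receptor of muscle, and of its glycosylation, 20 were tested and none passed with edgeR, nor with DESeq2 or limma-voom. By unadjusted p at 0.05, 3 of the 20 were higher and none lower, a share near that of all genes tested (10.1% higher and 7.64% lower). The log2 fold change was above 0 for 14 of the 20, against 50.9% of all genes tested, with a median of 0.16. Dag1, which encodes dystroglycan itself, was at 396, 295 and 301 CPM in control and at 454, 358 and 341 CPM in KO libraries, with overlap (log2 fold change 0.21, 95% interval -0.11 to 0.54). Utrn, the utrophin gene, was at 108 ± 20.97 and 108 ± 15.4 CPM. Sgca, the alpha-sarcoglycan gene, lies 68.1 kb from Itga3 and had 7, 5 and 5 control counts against 16, 15 and 16 KO counts, and it missed the threshold (log2 fold change 1.60, SE 0.43, adjusted p = 0.06423).

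Of 29 integrin ligands other than laminins, 24 were tested and none passed with edgeR, while DESeq2 called 2 and limma-voom 1. By unadjusted p at 0.05, 3 of the 24 were higher and 1 lower, again near the shares of all genes tested (10.1% and 7.64%). The log2 fold change was above 0 for 21 of the 24, against 50.9% of all genes tested, with a median of 0.27. Thbs4, a thrombospondin, was at 926, 287 and 680 CPM in control and at 680, 613 and 981 CPM in KO libraries (adjusted p = 0.8372). Spp1, the gene of osteopontin, a ligand of Itgav and Itga9, was at 524, 574 and 582 CPM in control and at 322, 372 and 455 CPM in KO libraries. Its groups did not overlap, and it stood just outside the threshold (log2 fold change -0.55, SE 0.14, adjusted p = 0.05204). Fn1, the fibronectin ligand of Itga5, was at 275 ± 169 and 416 ± 221 CPM (adjusted p = 0.716). Npnt, the nephronectin ligand of Itga8, was listed with the basement membrane partners of laminin above and not among these ligands. It was at 27.0 ± 1.61 CPM in control and 23.99 ± 2.16 CPM in KO cells (log2 fold change -0.17, 95% interval -0.47 to 0.14).

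**Figure D5:**
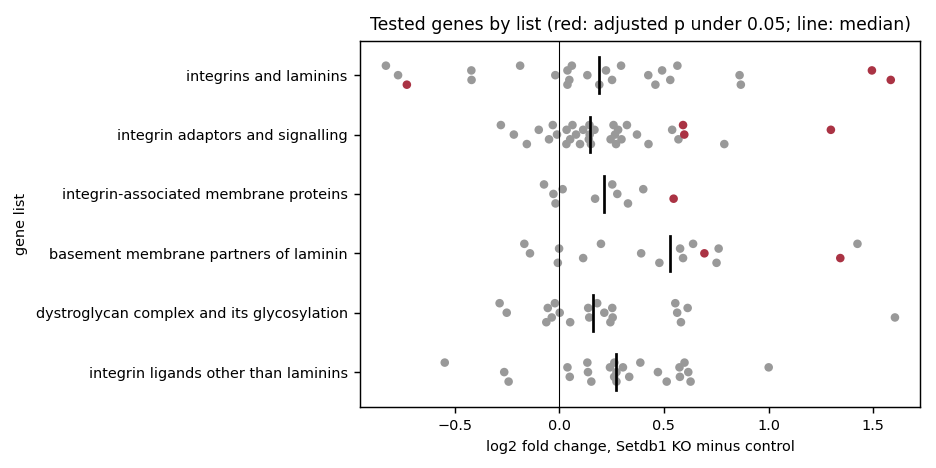
Log2 fold change (Setdb1 KO minus control) of each tested gene in the set of integrins and laminins and in 5 lists of related genes, with the median of each list as a line and genes that passed the test in red. Medians run from 0.15 for the adaptors to 0.53 for the basement membrane partners, and Itga3 is the only red point below 0.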

How the data were processed

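The deposited values are raw counts, 1 whole number for each Ensembl gene in each of the 6 libraries. A stranded total RNA kit after ribosomal RNA depletion, with paired reads of 75 bases, is described per the labels' protocols, which also name a second kit. STAR, Salmon, DESeq2 1.34.0 and GRCm38 are listed per the submitters' processing notes. How reads were counted, by strand or not and on which annotation, is not given in the sources used here, so a member and its antisense neighbour may share reads (B230344G16Rik overlaps 7.7% of Itgb4 exon bases, E030013I19Rik 5% of those of Itga8).

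Symbols were found for 55141 of 55487 genes, and positions and lengths (union of exons) came from GENCODE M21. Counts were tested with edgeR 4.0.16 in R 4.3.3 (quasi-likelihood, robust, TMM factors, default low-count filter, group only), with Benjamini-Hochberg adjustment over 11224 genes. The SE is the fold change over the root of F. The procedure was tested on simulated data. Alternatives were DESeq2 1.42.0, limma-voom (limma 3.58.1), other scaling factors, other filters, the replicate number as a block, each library left out, and control library 3 with KO library 2 left out.

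The members and lists were chosen with earlier results of these data known. Named were all members but 1, which is not reported here, up to 6 passing genes of each list or else its 2 most abundant, and marker genes. Mindy3, Fn1, Npnt, Sgca and the other genes named without a call were chosen after their values were seen. Floors cover counting error only. No 2 libraries of a group matched within counting noise.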

Additional observations from a re-analysis of the deposited data

How the results depend on the processing

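Itgb4 was called under all 15 alternatives, Itga3 under 14 and Itga8 under 7, each with its direction kept. Members called as higher numbered 1 with DESeq2, 1 with the replicate number as a block and 1 without control library 3 and KO library 2, the lost gene being Itga8 each time. Leaving out 1 library in turn gave 1 to 3 members called, 1 to 2 higher and 0 to 1 lower. Over all genes, leaving out 1 library gave 152 to 345 called, 133 to 255 higher and 15 to 90 lower, and no filter gave 511 called, 138 of them lower. The replicate block gave 247 called genes, 206 higher and 41 lower, and ended the calls of Itga8, Rsu1 and Cd82 (adjusted p = 0.05441, 0.06645 and 0.07253). Same-numbered libraries did not deviate together (correlations of 0.142, -0.0925 and -0.0615, and 2 of 6 libraries correlated best with their own number). With only 3 libraries per group, these correlations cannot show whether the libraries were paired.

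Called adaptor genes numbered 1 with library totals alone and 0 to 4 with 1 library left out. Called membrane partners numbered 0 with library totals, 0 with no filter, 0 with the block and 0 to 1 with 1 library left out. Called basement membrane partners numbered 1 with library totals, 6 with no filter, 4 with DESeq2, 4 with the block and 1 to 4 with 1 library left out. Called ligands other than laminins numbered 1 with upper quartile factors, 3 with no filter, 2 with DESeq2, 1 with limma-voom and 0 to 1 with 1 library left out.

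Log2 fold changes that turned sign all belonged to genes not called in either fit, and the cause was not tested. With library totals alone Itgav was at -0.039, Itgb1 at -0.022, Itgb6 at -0.015, Itga7 at -0.043 and Utrn at -0.075. With no filter Itga7 was at -0.01 and Utrn at -0.036. Utrn was also at -0.01 with DESeq2 size factors in edgeR, at -0.009 with the 1 CPM filter and at -0.009 with DESeq2. With limma-voom Itga2 was at 0.294 and Itgb2 at 0.415, and with the block Itga2 was at 0.142. Without control library 3 and KO library 2, Itgav was at -0.021, Itga2 at 0.265, Lama3 at 0.244 and Utrn at -0.112. With 1 library left out in turn, Itga2 ran from -0.482 to 0.484, Itga7 from -0.084 to 0.138, Itgam from -1.978 to 1.891, Itgav from -0.102 to 0.203, Itgb1 from -0.026 to 0.097, Itgb2 from -0.961 to 1.338, Itgb5 from -0.148 to 0.613, Itgb6 from -0.096 to 0.274, Lama3 from -1.11 to 0.089, Lama5 from -0.367 to 0.006, Thbs4 from -0.094 to 0.64 and Utrn from -0.134 to 0.139.

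Scaling by library totals ended the calls of Lims1, Rsu1, Cd82 and Sparc (adjusted p = 0.08224, 0.08494, 0.09859 and 0.08739), and testing with no filter ended that of Cd82 (0.05727). The 12 untested genes had at most 43 counts over the 6 libraries, too few for a test at this depth. For 12 tested genes that were not called the 95% interval reached a 2-fold change.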
